A study of Homo sapiens with 12 samples.

Results

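The 43 genes described here encode the steps from glucose uptake to lactate export, the kinases that inhibit pyruvate dehydrogenase, and well known targets of the hypoxia-inducible factors (HIF). They were chosen by name, with earlier results of these data known. Shares of all genes set beside these genes or the other lists below are therefore descriptions only. All 43 were matched by symbol and found among the 27788 gene symbols in the deposited counts. By role, 25 belong to the path from glucose to lactate and 18 are hypoxia-induced genes outside that path. Glycolysis splits glucose into pyruvate in the cytosol, and tumour cells often turn much of that pyruvate into lactate even with oxygen at hand. HIF is a pair of transcription factor subunits: its alpha subunit is hydroxylated by the EGLN enzymes when oxygen is present, bound by VHL and destroyed, so that its targets rise when oxygen or hydroxylase activity falls. Many glycolytic enzymes are themselves HIF targets, which is why both kinds of gene are read together.

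The libraries come from 2 human cancer cell lines, the colorectal carcinoma line HCT116 and the glioblastoma line U-87 MG, each as GSTO1 KO and WT cells with 3 libraries per group and 12 in all. GSTO1 is a glutathione transferase of the omega class, which works with glutathione in redox reactions in the cytosol. KO cells were made, per the labels' protocols, in cells carrying Cas9 from a lentivirus under blasticidin selection, with a crRNA against exon 2 of GSTO1, and single colonies were grown out. A KO group can therefore stand for as little as 1 clone, and the sources used here do not give the number of colonies behind the libraries. Nor do they say whether WT cells were untreated or had received the control crRNA. Separate cultures are not stated for a group's 3 libraries, so p-values reflect library-to-library spread that may be technical only. No oxygen level or hypoxic treatment is named in the labels for any group.

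Total counts were between 17814142 and 28097179 per library. CPM stands for counts scaled to library size. GSTO1 itself had 17.1, 14.6 and 15.7 CPM in HCT116 KO libraries, against 63.9, 64.7 and 61.4 CPM in HCT116 WT libraries, and 25.02, 23.8 and 25.2 CPM in U-87 MG KO libraries, against 143, 142 and 117 CPM in U-87 MG WT libraries. KO libraries lay far below WT libraries in both lines, with log2 fold changes of -2.01 ± 0.069 in HCT116 and -2.44 ± 0.074 in U-87 MG (SE). Libraries of a group differed by more than counting noise (chi-square per degree of freedom 1.49 to 9.77), and U-87 MG WT replicate 3 stood apart most from its group (8.62 and 9.77). Epithelial markers summed to 1907 to 2104 FPKM in HCT116 KO libraries and 2081 to 2204 FPKM in HCT116 WT libraries, and to at most 8.53 FPKM in U-87 MG. Of the 10 epithelial markers tested in HCT116, 5 were nevertheless called higher in KO cells (CDH1, CLDN3, CLDN4, ELF3 and ESRP1) and 0 lower, by the threshold defined with the first results. Among all genes tested in HCT116, 7.82% were called higher and 4.07% lower. The ribosomal RNA gene listed as RNR2 took 1.36% to 1.54% of counts in HCT116 KO libraries and 0.981% to 1.06% in HCT116 WT libraries, and 0.419% to 0.435% in U-87 MG KO libraries and 0.254% to 0.322% in U-87 MG WT libraries, without overlap in either line. The part of these shifts in the results was not tested. Glial and mesenchymal markers summed to 6788 to 6885 FPKM in U-87 MG KO libraries and 7385 to 8069 FPKM in U-87 MG WT libraries. The sums were carried by mesenchymal genes, with GFAP, AQP4, SOX2, S100B and OLIG2 at or near 0. NES, from the same list, was expressed, with means of 19.5 FPKM in U-87 MG KO libraries and 15.1 FPKM in U-87 MG WT libraries. Leukocyte markers summed to at most 5.03 FPKM and endothelial and blood markers to at most 3.53 FPKM in any library.

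Loss of GSTO1 went with a small, mixed shift of these genes in HCT116 and a mostly upward one in U-87 MG. A gene was called where edgeR's quasi-likelihood test gave an adjusted p under 0.05 over all genes tested, the fold was above 1.5 in either direction and the mean FPKM above 0.5. In HCT116, 42 of the 43 genes were tested, 6 were called higher in KO (ALDOC, PDK1, BNIP3L, DDIT4, NDRG1 and MXI1) and 4 lower (SLC2A1, PGAM1, SLC16A3 and CA12). Over all 14068 genes tested in HCT116, 7.82% were called higher and 4.07% lower. In U-87 MG all 43 were tested, 8 were called higher (SLC2A3, ENO2, PDK3, ADM, P4HA1, DDIT4, ANKRD37 and MXI1) and 0 lower. Over all 13741 genes tested in U-87 MG, 8.06% were called higher and 8.15% lower. DDIT4 and MXI1 were called higher in both lines. These are values of bulk RNA, in which fewer cells expressing a gene and less of its RNA per cell cannot be told apart.

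The median log2 fold change of the 42 genes tested in HCT116 was 0.066, against 0.0073 for all genes tested there. It was 0.21 for the 43 genes in U-87 MG, against 0.006 for all genes. The genes were chosen with earlier results of these data known, so these comparisons do not measure an independent excess. By adjusted p alone, without the fold threshold, 14 were higher and 15 lower in HCT116 KO cells and 26 were higher and 7 lower in U-87 MG KO cells. Of all genes tested, 57.3% and 59.3% passed that p in HCT116 and U-87 MG, so most such shifts were small. These shares were not split by direction. Regardless of p, 50.8% and 50.7% of all genes tested had a positive log2 fold change in HCT116 and U-87 MG. Among the 26, SLC2A3, ENO2, TPI1, GAPDH and LDHB lie in a region of chromosome 12 that was higher as a group, described below. The glucose-to-lactate genes had a median of -0.076 in HCT116 and 0.16 in U-87 MG. The hypoxia-induced genes had a median of 0.15 in HCT116 and 0.34 in U-87 MG. Leaving out U-87 MG WT replicate 3, the library that stood apart, 7 were called higher in U-87 MG and 0 lower, with ENO2 the one no longer called.

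**Figure D1:**
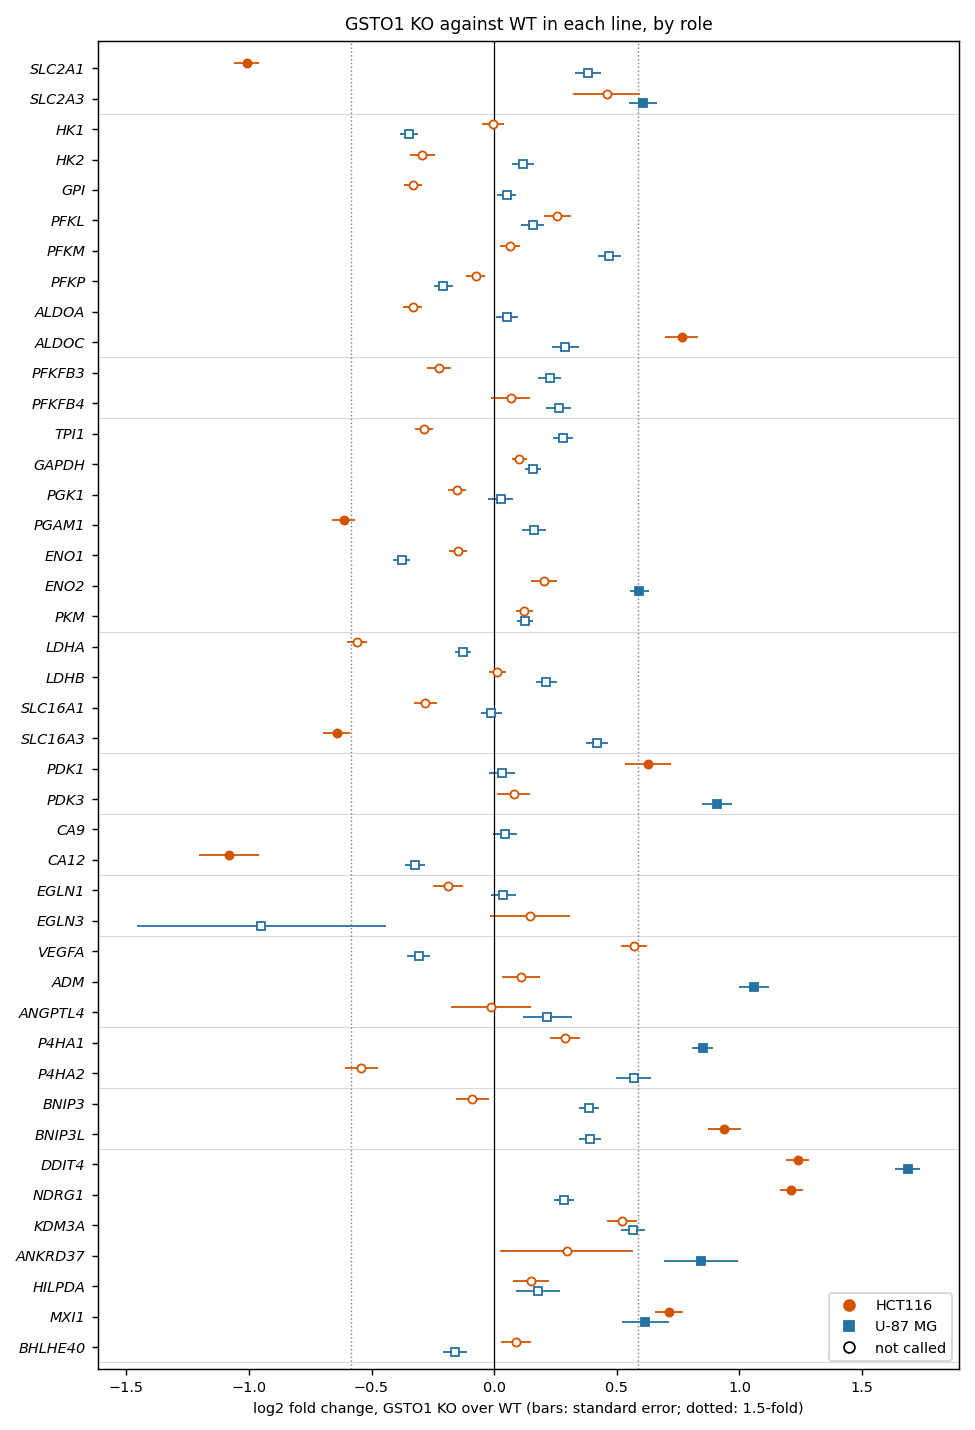
Log2 fold change of GSTO1 KO over WT (x axis) for each gene, ordered by role from glucose uptake at the top to the stress genes at the bottom, in HCT116 (orange circles) and U-87 MG (blue squares). Bars are standard errors from edgeR, filled symbols are called genes, open symbols are not called, dotted lines mark a 1.5-fold difference, and CA9 was not tested in HCT116. DDIT4 is far to the right in both lines, while SLC2A1 is at -1.01 in HCT116 and 0.38 in U-87 MG.

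The DNA just upstream of these genes was read for the letters of a HIF site. HIF binds short elements with the core ACGTG or GCGTG. Both were searched on both strands in the 250 bases upstream of the first listed RefSeq start of each gene (GRCh38.p14). Other starts of a gene were not read, and for several genes the window lies inside the gene's GENCODE span. Of the 43 genes, 37 matched an entry in the promoter table. ACGTG stood in 17 of the 37, or 45.9%, against 18.7% of all 27305 promoters in the table and 22.9% of the 11383 of genes tested in a line. GCGTG stood in 13 of the 37, or 35.1%, against 31.9% of all promoters and 44.2% of those of tested genes. The motifs differ in their first letter only. CACGTG, which holds ACGTG on both strands, stood in 6 of the 37, or 16.2%, against 6.49% of all promoters and 8.66% of those of tested genes. A match is a run of letters and not a measured binding site.

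Shown are DDIT4 and MXI1, called higher in both lines, ANKRD37 and P4HA1, called higher in U-87 MG, ALDOC, called higher in HCT116, and LDHA and SLC2A1, both lower in HCT116 KO cells, with the second but not the first past the fold threshold. Each run is read 5′ to 3′ on the gene's own strand and ends at the base before the start. Both cores and their reverse complements are in capitals, and neighbouring or overlapping matches run together. The runs lie at chr10:72273674-72273923 (plus strand), chr10:110207355-110207604 (plus), chr4:185396591-185396840 (plus), chr10:73096867-73097116 (minus), chr17:28576896-28577145 (minus), chr11:18394313-18394562 (plus) and chr1:42958869-42959118 (minus).
DDIT4: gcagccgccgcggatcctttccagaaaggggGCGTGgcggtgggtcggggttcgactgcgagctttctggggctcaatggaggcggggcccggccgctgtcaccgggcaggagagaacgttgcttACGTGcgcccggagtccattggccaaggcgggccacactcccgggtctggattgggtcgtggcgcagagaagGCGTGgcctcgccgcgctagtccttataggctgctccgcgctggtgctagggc
MXI1: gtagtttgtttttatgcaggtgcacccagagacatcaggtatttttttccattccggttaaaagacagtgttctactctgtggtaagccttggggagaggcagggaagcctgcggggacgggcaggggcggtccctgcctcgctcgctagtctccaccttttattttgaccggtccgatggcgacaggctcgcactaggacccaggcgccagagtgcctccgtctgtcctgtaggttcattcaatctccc
ANKRD37: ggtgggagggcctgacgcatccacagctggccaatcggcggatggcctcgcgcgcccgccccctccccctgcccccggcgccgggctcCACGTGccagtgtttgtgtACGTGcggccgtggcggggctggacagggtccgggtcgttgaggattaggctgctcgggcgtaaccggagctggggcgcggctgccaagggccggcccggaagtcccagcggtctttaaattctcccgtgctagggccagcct
P4HA1: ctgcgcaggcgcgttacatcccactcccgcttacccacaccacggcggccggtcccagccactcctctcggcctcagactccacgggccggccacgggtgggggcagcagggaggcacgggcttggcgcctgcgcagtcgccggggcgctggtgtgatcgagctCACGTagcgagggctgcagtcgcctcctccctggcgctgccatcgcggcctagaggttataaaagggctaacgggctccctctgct
ALDOC: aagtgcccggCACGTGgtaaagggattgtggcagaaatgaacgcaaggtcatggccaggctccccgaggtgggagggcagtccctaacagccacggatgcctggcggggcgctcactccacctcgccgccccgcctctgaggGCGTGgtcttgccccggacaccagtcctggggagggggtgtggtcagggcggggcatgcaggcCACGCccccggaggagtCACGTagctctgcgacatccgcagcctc
LDHA: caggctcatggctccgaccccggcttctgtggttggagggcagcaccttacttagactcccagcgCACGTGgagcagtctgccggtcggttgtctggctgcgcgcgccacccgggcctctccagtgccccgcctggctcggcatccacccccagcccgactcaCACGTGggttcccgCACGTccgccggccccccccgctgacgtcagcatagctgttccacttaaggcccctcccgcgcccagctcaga
SLC2A1: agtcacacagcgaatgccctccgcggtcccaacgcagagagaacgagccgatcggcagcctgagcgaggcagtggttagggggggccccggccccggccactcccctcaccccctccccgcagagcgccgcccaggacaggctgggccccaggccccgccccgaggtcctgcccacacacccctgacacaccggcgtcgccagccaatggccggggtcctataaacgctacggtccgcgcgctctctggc
DDIT4 holds 1 ACGTG and 2 GCGTG, ANKRD37 holds 3 ACGTG in a GC-rich run, and P4HA1 holds 1 ACGTG. MXI1 and SLC2A1 hold neither motif in this window. LDHA holds 5 ACGTG, counted on both strands, the most of the 37, and was lower in KO libraries. ALDOC holds 3 ACGTG and 2 GCGTG. Of the other 3 genes called lower in HCT116, PGAM1 and SLC16A3 hold neither motif here and CA12 holds 1 GCGTG. The windows of PGAM1, SLC16A3 and ANKRD37 lie inside the GENCODE spans of these genes, so DNA at their outermost starts was not read.

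Of the 2 glucose transporters among these genes, SLC2A1 RNA changed in opposite directions in the lines. Glucose uptake was not measured. SLC2A1, the transporter GLUT1 that carries basal glucose uptake in most cells, had 51.5, 49.2 and 51.1 CPM in HCT116 KO libraries, against 99.6, 101 and 105 CPM in HCT116 WT libraries. All KO libraries lay at about the same level and below every WT library, a log2 fold change of -1.01 ± 0.051 (SE, adjusted p = 2.74e-12), so SLC2A1 fell in HCT116. In U-87 MG the order was the other way, with 103, 107 and 116 CPM in U-87 MG KO libraries, against 78.5, 86.8 and 84.1 CPM in U-87 MG WT libraries. The groups did not overlap, but the log2 fold change of 0.38 ± 0.053 (SE, adjusted p = 1.99e-06) was under the fold threshold. SLC2A3, the high-affinity transporter GLUT3 typical of neurons, had 61.7, 61.6 and 60.5 CPM in U-87 MG KO libraries, against 39.1, 41.99 and 39.6 CPM in U-87 MG WT libraries. It rose in U-87 MG by 0.61 ± 0.056 (SE, adjusted p = 3.93e-09), close to the threshold of 0.585, and without U-87 MG WT replicate 1 the value was 0.58 and the call was lost. In HCT116 it was scarce, with 6.81, 8.37 and 5.89 CPM in HCT116 KO libraries, against 4.94, 4.82 and 5.52 CPM in HCT116 WT libraries, and a log2 fold change of 0.46 ± 0.14 (SE, adjusted p = 0.00753) that was not called. By FPKM, which is per length, SLC2A3 made up 12.2% ± 1.66 in HCT116 KO and 4.77% ± 0.193 in HCT116 WT of the 2 transporters' sum, and 36.8% ± 1.68 in U-87 MG KO and 33.2% ± 0.604 in U-87 MG WT (SD, n = 3 each). Of its 50-base stretches, 14.8% also occur elsewhere, mainly in its close relative SLC2A14, so its counts are uncertain to that extent.

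The upper enzymes, from hexokinase to aldolase, moved little. HK2, the hexokinase that many tumours induce, had 67.1, 62.1 and 65.3 CPM in HCT116 KO libraries, against 77.9, 79.4 and 80.9 CPM in HCT116 WT libraries. KO libraries were below WT libraries without overlap, with a log2 fold change of -0.29 ± 0.051 (SE, adjusted p = 6.7e-05), not called. Its U-87 MG values were 134, 133 and 136 CPM in U-87 MG KO libraries, against 126, 129 and 117 CPM in U-87 MG WT libraries, a difference of 0.12 ± 0.045 (SE, adjusted p = 0.0322) in the opposite direction, not called either. HK1, the hexokinase of most tissues, was at -0.0049 in HCT116 and -0.35 in U-87 MG. GPI, the isomerase that follows, was at -0.33 and 0.051, and ALDOA, the main aldolase, was at -0.33 and 0.052 in HCT116 and U-87 MG.

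ALDOC, the brain-type aldolase, was the one upper enzyme called. It had 40.3, 42.96 and 46.1 CPM in HCT116 KO libraries, against 26.5, 25.1 and 24.6 CPM in HCT116 WT libraries. No KO library came near a WT library, and ALDOC rose in HCT116 by 0.76 ± 0.068 (SE, adjusted p = 1.17e-08). In U-87 MG it had 60.7, 66.2 and 68.4 CPM in U-87 MG KO libraries, against 53.6, 52.8 and 53.2 CPM in U-87 MG WT libraries, also without overlap, with a log2 fold change of 0.29 ± 0.056 (SE, adjusted p = 0.000118) that was not called. Against the far more abundant ALDOA it remained a minor form, at 4.47% ± 0.17 in HCT116 KO and 2.1% ± 0.084 in HCT116 WT of the summed aldolase FPKM.

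Phosphofructokinase, the main control point of glycolysis, is built of PFKL, PFKM and PFKP subunits. None was called in either line, and their log2 fold changes ran between -0.076 (PFKP) and 0.26 (PFKL) in HCT116 and between -0.21 (PFKP) and 0.47 (PFKM) in U-87 MG. Their shares of the summed FPKM of the 3 nevertheless differed without overlap between libraries. PFKM was 20.3% ± 0.624 in U-87 MG KO and 14.5% ± 0.321 in U-87 MG WT, while its HCT116 libraries overlapped. PFKP was 57.1% ± 0.527 in HCT116 KO and 60.9% ± 0.657 in HCT116 WT, and 54.96% ± 0.799 in U-87 MG KO and 63.5% ± 0.547 in U-87 MG WT. PFKL was 20.3% ± 0.939 in HCT116 KO and 17.1% ± 0.201 in HCT116 WT, and 24.8% ± 0.856 in U-87 MG KO and 22.02% ± 0.231 in U-87 MG WT (SD, n = 3 each). PFKFB3 and PFKFB4 make fructose 2,6-bisphosphate, the strongest activator of phosphofructokinase. PFKFB3 was at -0.22 in HCT116 and 0.23 in U-87 MG, PFKFB4 at 0.067 and 0.26, and neither was called.

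Among the 7 lower enzymes, from triose phosphate isomerase to pyruvate kinase, PGAM1 was called lower in HCT116 and ENO2 higher in U-87 MG. PGAM1, the phosphoglycerate mutase of most tissues, had 103, 107 and 113 CPM in HCT116 KO libraries, against 161, 164 and 171 CPM in HCT116 WT libraries. The groups stood well apart, and PGAM1 fell (log2 fold change -0.61 ± 0.048 (SE, adjusted p = 1.61e-09)). Leaving out HCT116 KO replicate 1 brought it to -0.58, just short of the fold threshold. In U-87 MG PGAM1 had 169.6, 181 and 182 CPM in U-87 MG KO libraries, against 166, 162 and 148 CPM in U-87 MG WT libraries, with a log2 fold change of 0.16 ± 0.047 (SE, adjusted p = 0.00534) that was not called. Of its 50-base stretches, 39.96% occur at other loci, the largest such share among the 43 genes, and the counting of reads with several matches is not stated. Such shares were also 12.6% for TPI1, 9.47% for GAPDH and 8.37% for HK2.

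ENO2, the enolase of neurons, had 281, 282 and 288 CPM in U-87 MG KO libraries, against 189, 192 and 184 CPM in U-87 MG WT libraries. It rose in U-87 MG by 0.59 ± 0.04 (SE, adjusted p = 1.8e-11), with tight groups far apart, but the estimate sits on the fold threshold and was 0.58 without KO replicate 3 and 0.57 without WT replicate 3, and 0.58 with no filter on low counts, where it was not called. In HCT116 it had 67.5, 69.8 and 71.2 CPM in HCT116 KO libraries, against 62.7, 58.8 and 59.6 CPM in HCT116 WT libraries, a log2 fold change of 0.20 ± 0.053 (SE, adjusted p = 0.00264), not called. ENO1, the general enolase, ran the other way in U-87 MG at -0.38 ± 0.036 (SE, adjusted p = 6.47e-09), not called. ENO2 thus took 7.005% ± 0.0893 in U-87 MG KO and 3.67% ± 0.0962 in U-87 MG WT of the summed enolase FPKM (SD, n = 3 each).

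GAPDH, the glyceraldehyde phosphate dehydrogenase often used as a constant control, had 5523, 5708 and 5659.5 CPM in HCT116 KO libraries, against 5221, 5253 and 5257 CPM in HCT116 WT libraries. It had 6907, 7213 and 7209.8 CPM in U-87 MG KO libraries, against 6310.3, 6306 and 6496 CPM in U-87 MG WT libraries. KO libraries were above WT libraries in both lines by a small margin, 0.10 ± 0.03 (SE, adjusted p = 0.00615) in HCT116 and 0.16 ± 0.031 (SE, adjusted p = 0.000126) in U-87 MG, neither called. TPI1, which interconverts the triose phosphates, was at -0.29 in HCT116 and 0.28 in U-87 MG. PGK1, the first enzyme of the path to yield ATP, was at -0.15 and 0.027, and PKM, the pyruvate kinase of tumours, at 0.12 and 0.13. Together the 17 enzymes from hexokinase to lactate dehydrogenase took 1.66% to 1.73% of all counts in HCT116 KO libraries and 1.73% to 1.76% in HCT116 WT libraries, with overlap. They took 2.68% to 2.76% in U-87 MG KO libraries and 2.54% to 2.64% in U-87 MG WT libraries, without overlap. GAPDH decided both readings. Without it the sum was 1.11% to 1.16% in HCT116 KO libraries, below the 1.21% to 1.24% in every HCT116 WT library, and 1.97% to 2.03% in U-87 MG KO libraries and 1.899% to 2.02% in U-87 MG WT libraries, which overlapped.

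Of these genes, 5 sit on the short arm of chromosome 12, whose genes were higher as a group in U-87 MG KO cells. The median log2 fold change of the tested genes within 5 Mb, a measure chosen after the values were seen, was 0.31 around SLC2A3, 0.25 around ENO2, 0.25 around TPI1, 0.28 around GAPDH and 0.31 around LDHB. The genes' own values were 0.61, 0.59, 0.28, 0.16 and 0.21 in the same order, so SLC2A3 and ENO2 lay above their neighbours, TPI1 near them and GAPDH and LDHB below. In HCT116 the same neighbour medians ran between 0.0018 and 0.08. The part of such regional shifts in the gene values was not tested.

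**Figure D2:**
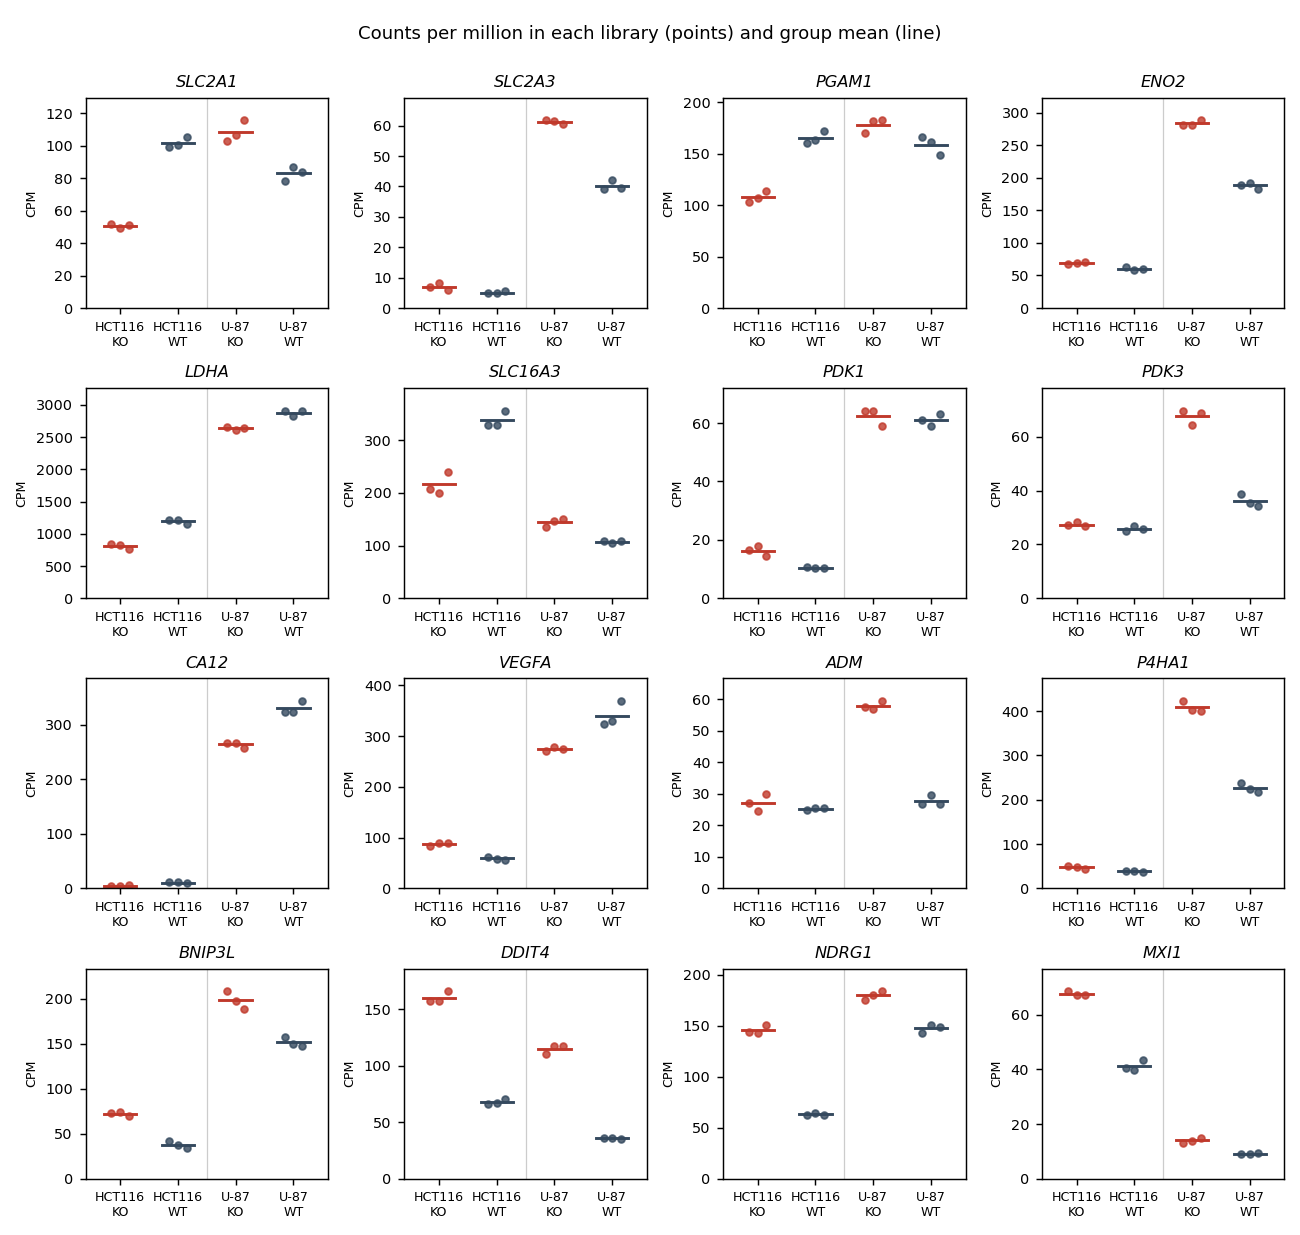
CPM (y axis, from 0) of 16 genes in each of the 12 libraries (points), with the group mean as a line, KO in red and WT in dark grey, HCT116 on the left and U-87 MG on the right of each panel. SLC2A1 averaged 50.6 CPM in HCT116 KO libraries and 102 CPM in HCT116 WT libraries, while DDIT4 stands higher in KO libraries of both lines.

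Lactate is made by lactate dehydrogenase, a tetramer of LDHA and LDHB chains, and leaves through the monocarboxylate transporters. LDHA, the chain that favours lactate, had 836, 833 and 765 CPM in HCT116 KO libraries, against 1217, 1217 and 1152 CPM in HCT116 WT libraries. Every KO library lay below every WT library, with a log2 fold change of -0.56 ± 0.039 (SE, adjusted p = 3.76e-10) that stopped just short of the fold threshold. Leaving out WT replicate 3 gave -0.59, which passed it. In U-87 MG it had 2659.8, 2609 and 2646 CPM in U-87 MG KO libraries, against 2912, 2829 and 2908 CPM in U-87 MG WT libraries, lower without overlap but by only -0.13 ± 0.031 (SE, adjusted p = 0.00134). LDHB, the chain that favours pyruvate, was at 0.013 in HCT116 and 0.21 in U-87 MG. By FPKM, LDHA was 31.4% ± 1.19 in HCT116 KO and 40.5% ± 0.827 in HCT116 WT, and 66.4% ± 0.21 in U-87 MG KO and 71.5% ± 1.76 in U-87 MG WT (SD, n = 3 each), lower in KO in both lines.

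SLC16A3, the lactate exporter MCT4 and a HIF target, had 208, 201 and 240.5 CPM in HCT116 KO libraries, against 329, 329 and 356 CPM in HCT116 WT libraries. Its KO libraries were all lower, with replicate 3 highest among them, and SLC16A3 fell in HCT116 (log2 fold change -0.64 ± 0.055 (SE, adjusted p = 6.33e-09)). In U-87 MG it had 136, 146 and 149.8 CPM in U-87 MG KO libraries, against 109, 104 and 109 CPM in U-87 MG WT libraries, the opposite order without overlap, at 0.42 ± 0.047 (SE, adjusted p = 7.31e-08), not called. SLC16A1, the transporter MCT1 that carries lactate both ways, was at -0.28 in HCT116 and -0.012 in U-87 MG. A gene on the opposite strand covers 5.22% of the exon bases of SLC16A3. Such overlap was also 5.41% for P4HA2, 7.12% for PFKM and 12.8% for BHLHE40.

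The pyruvate dehydrogenase kinases inhibit pyruvate dehydrogenase, the enzyme that turns pyruvate into acetyl-CoA inside mitochondria. Of PDK1 and PDK3, a different one was called in each line. PDK2, another such kinase outside these genes, was also called higher in U-87 MG and is left out of the shares below. In HCT116 its mean of 20.65 FPKM was above those of PDK1 (2.376 FPKM) and PDK3 (2.525 FPKM). PDK1, a HIF-1 target, had 16.4, 18.1 and 14.5 CPM in HCT116 KO libraries, against 10.6, 10.5 and 10.4 CPM in HCT116 WT libraries. The WT libraries were almost equal and all KO libraries above them, and PDK1 rose by 0.63 ± 0.094 (SE, adjusted p = 1.11e-05) in HCT116. This call was lost without HCT116 KO replicate 2, at 0.55. In U-87 MG, with 64.3, 63.98 and 58.99 CPM in U-87 MG KO libraries, against 61.2, 59.03 and 63.1 CPM in U-87 MG WT libraries, the groups overlapped at 0.032 ± 0.055 (SE, adjusted p = 0.64). PDK3 had 69.8, 64.4 and 69.1 CPM in U-87 MG KO libraries, against 38.8, 35.4 and 34.2 CPM in U-87 MG WT libraries. The KO libraries stood far above, and PDK3 rose by 0.91 ± 0.061 (SE, adjusted p = 1.91e-11) in U-87 MG. In HCT116 it had 27.1, 28.3 and 26.9 CPM in HCT116 KO libraries, against 25.1, 26.9 and 25.7 CPM in HCT116 WT libraries, overlapping, at 0.079 ± 0.068 (SE, adjusted p = 0.329). PDK3 was 48.1% ± 0.2 in HCT116 KO and 55.7% ± 2.41 in HCT116 WT of the summed FPKM of both kinases, and 38.01% ± 1.15 in U-87 MG KO and 27.4% ± 3.47 in U-87 MG WT (SD, n = 3 each), so that its share was lower in KO in HCT116 and higher in KO in U-87 MG.

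**Figure D3:**
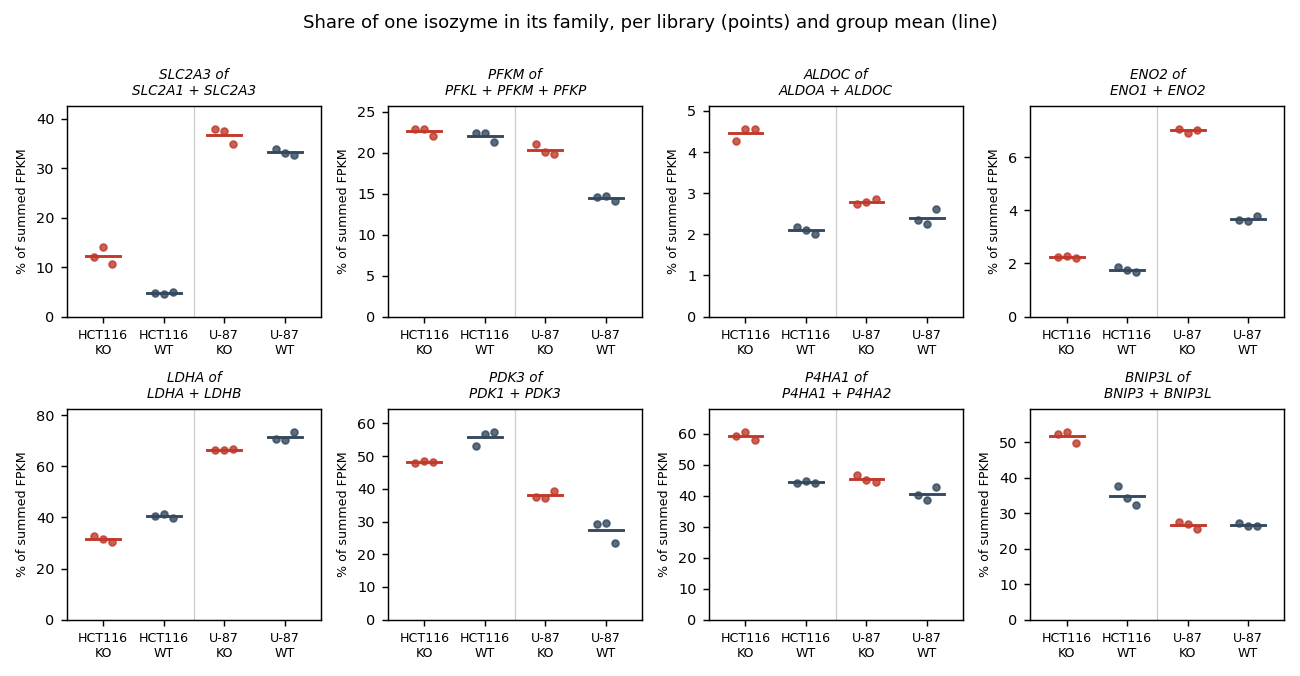
Share of one isozyme in the summed FPKM of its family (y axis, percent, from 0) in each library (points), with the group mean as a line, KO in red and WT in dark grey, HCT116 on the left and U-87 MG on the right of each panel. Only the genes described here are summed, so that PDK2, for example, is left out. LDHA took 31.4% in HCT116 KO libraries and 40.5% in HCT116 WT libraries, and PDK3 took 38.0% in U-87 MG KO libraries and 27.4% in U-87 MG WT libraries.

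The carbonic anhydrases CA9 and CA12 are membrane enzymes that buffer the acid exported by glycolytic cells, and CA9 is among the most strictly HIF-dependent genes known. CA9 had 0.391, 0.474 and 0.251 CPM in HCT116 KO libraries, against 0.0412, 0.193 and 0.0943 CPM in HCT116 WT libraries. These are a handful of reads per library, and the gene was not tested in HCT116. In U-87 MG it was abundant in both groups, with 155, 155 and 164 CPM in U-87 MG KO libraries, against 154, 162 and 142 CPM in U-87 MG WT libraries, overlapping at 0.044 ± 0.048 (SE, adjusted p = 0.453). Of its exon bases, 35.7% lie under an antisense gene. CA12 had 4.97, 4.32 and 5.6 CPM in HCT116 KO libraries, against 11.3, 11.02 and 9.34 CPM in HCT116 WT libraries. The groups stood apart, and CA12 fell in HCT116 (log2 fold change -1.08 ± 0.12 (SE, adjusted p = 2.89e-07)), although from a WT mean of only 2.13 FPKM. U-87 MG had 266, 267 and 258 CPM in U-87 MG KO libraries, against 322, 324 and 343 CPM in U-87 MG WT libraries, also lower without overlap at -0.32 ± 0.04 (SE, adjusted p = 3.72e-07), not called.

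The hydroxylases that mark HIF for destruction were not called in either line. EGLN1, the main oxygen sensor among them, was at -0.19 ± 0.061 (SE, adjusted p = 0.0131) in HCT116 and 0.037 ± 0.051 (SE, adjusted p = 0.551) in U-87 MG. EGLN3, itself strongly induced by hypoxia in many cells, had 4.24, 3.26 and 5.1 CPM in HCT116 KO libraries, against 3.5, 3.97 and 4.06 CPM in HCT116 WT libraries. The groups overlapped at 0.15 ± 0.16 (SE, adjusted p = 0.459), and the sign turned to -0.040 without HCT116 KO replicate 3. It was almost absent from U-87 MG, with 0.217, 0.385 and 0.682 CPM in U-87 MG KO libraries, against 1.45, 0.435 and 0.568 CPM in U-87 MG WT libraries and an overlap at -0.95 ± 0.51 (SE, adjusted p = 0.118). The median of the genes within 5 Mb of EGLN3, on chromosome 14, was -0.77 in U-87 MG.

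Of the secreted factors, VEGFA and ADM behaved differently in the lines. VEGFA, the main growth factor of new vessels, had 84.2, 89.2 and 88.9 CPM in HCT116 KO libraries, against 61.9, 58.3 and 56.8 CPM in HCT116 WT libraries. KO libraries were all higher, with a log2 fold change of 0.57 ± 0.053 (SE, adjusted p = 2.14e-08), under the fold threshold, which it passed without HCT116 KO replicate 1 (0.59) or WT replicate 1 (0.60). In U-87 MG the order was opposite, with 271, 279 and 275 CPM in U-87 MG KO libraries, against 323, 329 and 369 CPM in U-87 MG WT libraries and -0.31 ± 0.046 (SE, adjusted p = 6.26e-06), not called. ADM, the vasodilator peptide adrenomedullin, had 57.4, 56.8 and 59.4 CPM in U-87 MG KO libraries, against 26.8, 29.6 and 26.7 CPM in U-87 MG WT libraries. No library of the groups came close to the other, and ADM rose in U-87 MG by 1.06 ± 0.062 (SE, adjusted p = 2.06e-12). In HCT116 it had 27.1, 24.4 and 29.9 CPM in HCT116 KO libraries, against 24.9, 25.5 and 25.3 CPM in HCT116 WT libraries, overlapping at 0.11 ± 0.076 (SE, adjusted p = 0.229). ANGPTL4, an inhibitor of lipoprotein lipase, was at -0.012 ± 0.16 (SE, adjusted p = 0.956) in HCT116 and 0.22 ± 0.099 (SE, adjusted p = 0.0657) in U-87 MG.

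P4HA1 and P4HA2 are the catalytic subunits of collagen prolyl 4-hydroxylase, which stabilises the collagen helix. P4HA1 had 423, 403 and 400.0 CPM in U-87 MG KO libraries, against 239, 224 and 217 CPM in U-87 MG WT libraries. It rose in U-87 MG by 0.85 ± 0.043 (SE, adjusted p = 1.27e-13), the KO libraries lying far above. In HCT116 it had 50.6, 47.4 and 44.8 CPM in HCT116 KO libraries, against 38.7, 39.95 and 37.9 CPM in HCT116 WT libraries, higher without overlap at 0.29 ± 0.062 (SE, adjusted p = 0.000557), not called. P4HA2 had 367, 373 and 377 CPM in U-87 MG KO libraries, against 264, 270.0 and 218 CPM in U-87 MG WT libraries. WT replicate 3 was the lowest, the groups did not overlap, and the log2 fold change of 0.57 ± 0.071 (SE, adjusted p = 5.72e-05) was just under the threshold, which it passed without WT replicate 1 (0.61) or WT replicate 2 (0.62). In HCT116 the order was opposite, with 29.1, 25.3 and 27.05 CPM in HCT116 KO libraries, against 39.3, 39.4 and 39.8 CPM in HCT116 WT libraries and -0.54 ± 0.067 (SE, adjusted p = 9.36e-07), which passed the threshold without KO replicate 1 (-0.59). P4HA1 made up 59.4% ± 1.32 in HCT116 KO and 44.3% ± 0.401 in HCT116 WT of the summed FPKM of both, and 45.4% ± 1.09 in U-87 MG KO and 40.7% ± 2.14 in U-87 MG WT (SD, n = 3 each).

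BNIP3 and BNIP3L are mitochondrial receptors for mitophagy, the removal of mitochondria that hypoxia induces. BNIP3L had 73.2, 74.03 and 69.3 CPM in HCT116 KO libraries, against 41.6, 36.9 and 34.2 CPM in HCT116 WT libraries. The KO libraries lay far above, and BNIP3L rose by 0.94 ± 0.066 (SE, adjusted p = 3.82e-10) in HCT116. Its U-87 MG values were 208, 198 and 189 CPM in U-87 MG KO libraries, against 158, 149 and 147 CPM in U-87 MG WT libraries, again without overlap, at 0.39 ± 0.045 (SE, adjusted p = 1.49e-07), not called. BNIP3 was at -0.09 ± 0.067 (SE, adjusted p = 0.268) in HCT116 and 0.39 ± 0.041 (SE, adjusted p = 3.57e-08) in U-87 MG. BNIP3L therefore held 51.8% ± 1.61 in HCT116 KO and 34.9% ± 2.67 in HCT116 WT of the summed FPKM of both receptors, and 26.7% ± 0.969 in U-87 MG KO and 26.8% ± 0.552 in U-87 MG WT (SD, n = 3 each). An antisense gene covers 7.95% of the exon bases of BNIP3L, and 12.9% of the 50-base stretches of BNIP3 occur elsewhere.

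DDIT4, the stress protein REDD1 that restrains mTORC1, had the largest positive log2 fold change of the 43 genes in each line. It had 157, 158 and 166 CPM in HCT116 KO libraries, against 66.5, 66.9 and 70.95 CPM in HCT116 WT libraries. It had 111, 118 and 117 CPM in U-87 MG KO libraries, against 36.5, 35.9 and 35.1 CPM in U-87 MG WT libraries. Every KO library was more than 2-fold above any WT library of its line, and DDIT4 rose by 1.24 ± 0.048 (SE, adjusted p = 3.67e-14) in HCT116 and by 1.69 ± 0.052 (SE, adjusted p = 2.95e-17) in U-87 MG. DDIT4 also responds to amino acid shortage, energy stress and glucocorticoids, and its promoter run holds the motifs shown above. The part of any of these in the rise was not tested. MXI1, an antagonist of MYC in the MAX network, had 68.6, 67.1 and 67.1 CPM in HCT116 KO libraries, against 40.4, 39.8 and 43.6 CPM in HCT116 WT libraries. It had 13.2, 13.8 and 14.95 CPM in U-87 MG KO libraries, against 8.94, 8.88 and 9.51 CPM in U-87 MG WT libraries. The groups were apart in both lines, and MXI1 rose by 0.71 ± 0.057 (SE, adjusted p = 2.19e-09) in HCT116 and 0.62 ± 0.096 (SE, adjusted p = 8.83e-06) in U-87 MG. The second call was lost without U-87 MG KO replicate 3, at 0.56.

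NDRG1, a stress-responsive protein linked to differentiation and to growth control, had 144, 143 and 151 CPM in HCT116 KO libraries, against 62.4, 64.2 and 62.6 CPM in HCT116 WT libraries. It rose in HCT116 by 1.21 ± 0.047 (SE, adjusted p = 3.85e-14), almost as much as DDIT4. It had 175, 180.3 and 184 CPM in U-87 MG KO libraries, against 143, 151 and 149 CPM in U-87 MG WT libraries, higher without overlap but only by 0.28 ± 0.042 (SE, adjusted p = 4.68e-06). ANKRD37, a small ankyrin repeat protein and HIF target, had 6.68, 7.88 and 7.91 CPM in U-87 MG KO libraries, against 4.93, 4.39 and 3.07 CPM in U-87 MG WT libraries. KO libraries were all higher, WT replicate 3 was lowest, and ANKRD37 rose by 0.84 ± 0.15 (SE, adjusted p = 5.49e-05) in U-87 MG. In HCT116 it was near the detection floor with 1.51, 1.16 and 1.21 CPM in HCT116 KO libraries, against 1.07, 1.27 and 0.755 CPM in HCT116 WT libraries, overlapping at 0.29 ± 0.27 (SE, adjusted p = 0.366). An antisense gene covers 40.3% of its exon bases, so its counts are uncertain.

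KDM3A, a histone H3 lysine demethylase and HIF target, had nearly equal log2 fold changes of 0.52 ± 0.062 (SE, adjusted p = 5.53e-07) in HCT116 and 0.57 ± 0.049 (SE, adjusted p = 1.6e-09) in U-87 MG, both just under the threshold, and it was called higher in U-87 MG without U-87 MG WT replicate 2. HILPDA, a lipid droplet protein, was at 0.15 ± 0.074 (SE, adjusted p = 0.0936) and 0.18 ± 0.09 (SE, adjusted p = 0.0931) in HCT116 and U-87 MG. BHLHE40, a transcriptional repressor of the circadian network, was at 0.089 ± 0.061 (SE, adjusted p = 0.223) in HCT116 and -0.16 ± 0.049 (SE, adjusted p = 0.00764) in U-87 MG.

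The log2 fold change of KO over WT differed between HCT116 and U-87 MG for 11 of the 43 genes by the interaction in 1 fit of all libraries. It was higher in HCT116 for 4 and lower for 7. KO cells were grown from single colonies, so differences between clones and an effect of GSTO1 loss cannot be told apart. Over all 15613 genes tested, 9.66% were called higher and 7.24% lower. CA9, one of the 4, was not tested in HCT116 and entered this fit through its U-87 MG level. Among the 42 genes tested in both lines 3 were called higher and 7 lower, against 11.3% and 8.28% (19.6% in either direction) of the 12239 genes tested in both, a count added after seeing the data. SLC2A1 had the largest gap downward, -1.38 ± 0.076 (SE, adjusted p = 6.69e-16), then P4HA2 (-1.10 ± 0.092 (SE, adjusted p = 1.66e-10)), SLC16A3 (-1.05 ± 0.08 (SE, adjusted p = 2.12e-11)), ADM (-0.94 ± 0.1 (SE, adjusted p = 3.23e-09)), PDK3 (-0.82 ± 0.092 (SE, adjusted p = 8.54e-09)), PGAM1 (-0.77 ± 0.071 (SE, adjusted p = 1.48e-10)) and CA12 (-0.75 ± 0.11 (SE, adjusted p = 1.23e-06)). SLC2A1, SLC16A3, PGAM1 and P4HA2 lay below WT in HCT116 and above WT in U-87 MG, without overlap of the libraries in either line. Upward were NDRG1 (0.94 ± 0.064 (SE, adjusted p = 1.22e-13)), VEGFA (0.88 ± 0.07 (SE, adjusted p = 4.77e-12)), PDK1 (0.60 ± 0.1 (SE, adjusted p = 1.74e-05)) and CA9 (1.61 ± 0.52 (SE, adjusted p = 0.0135)), the last resting on the few HCT116 reads above and lost without HCT116 KO replicate 2 (1.40) or WT replicate 1 (1.22). The PDK1 difference was lost without HCT116 KO replicate 2 (0.53), U-87 MG KO replicate 3 (0.55) or U-87 MG WT replicate 3 (0.56), with unscaled library sizes (0.57) and with no filter on low counts (0.58). The P4HA1 difference, -0.55, was not called but passed the threshold without HCT116 KO replicate 1, U-87 MG KO replicate 3 or U-87 MG WT replicate 1 (-0.59 each), and that of BNIP3L passed it without HCT116 WT replicate 1 (0.63). That of EGLN3 passed it without HCT116 KO replicate 2 (1.25), U-87 MG KO replicate 3 (1.59), U-87 MG WT replicate 2 (1.43) or U-87 MG WT replicate 3 (1.25), on U-87 MG levels near 0. TPI1, at -0.56, passed it without HCT116 KO replicate 3, U-87 MG KO replicate 1 or U-87 MG WT replicate 2. For DDIT4 the difference was -0.44 ± 0.071 (SE, adjusted p = 6.15e-06), and for MXI1 0.11 ± 0.1 (SE, adjusted p = 0.449), neither called.

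Across the 42 genes tested in both lines, the 2 log2 fold changes had the same sign for 26 genes (61.9%), with Pearson's r of 0.355 and Spearman's rho of 0.351. Over all 12239 genes tested in both, the same sign was seen for 61.1%, with r of 0.179 and rho of 0.285. Both are descriptions across genes, which are not independent replicates. The lines share no libraries.

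**Figure D4:**
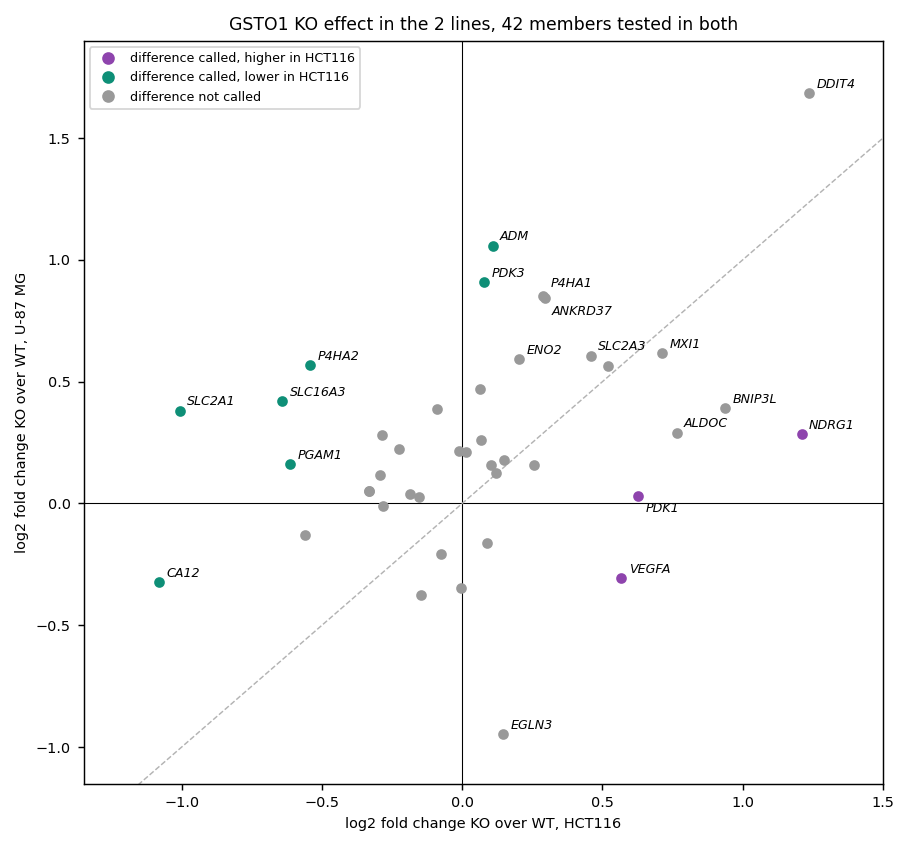
Log2 fold change of GSTO1 KO over WT in HCT116 (x axis) and in U-87 MG (y axis) for the 42 genes tested in both; the dashed line marks equal values. Purple and green points are genes whose log2 fold change differed between the lines (higher or lower in HCT116), and grey points are genes with no called difference. DDIT4 is at the upper right, and SLC2A1, SLC16A3, PGAM1 and P4HA2 lie at the upper left, lower in HCT116 KO and higher in U-87 MG KO cells.

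The lines started from different levels. FPKM can be set side by side across genes, but the lines were sequenced with different read layouts (single reads for HCT116, paired for U-87 MG), so their levels are described without a test. In WT cells 9 genes were lower and 32 higher in every U-87 MG library than in any HCT116 library by FPKM. The same count was not made over all genes, so it does not show that these genes differ more than others. GAPDH led in both lines, at 5064 ± 148 FPKM in U-87 MG KO libraries and 4465 ± 94.98 FPKM in U-87 MG WT libraries, and 3712 ± 70.9 FPKM in HCT116 KO libraries and 3592 ± 7.64 FPKM in HCT116 WT libraries (SD, n = 3 each). In U-87 MG WT cells it was followed by ENO1 (1843 FPKM) and PKM (1818 FPKM), whose libraries overlapped, then LDHA (1299 FPKM) and ALDOA (1241 FPKM), which overlapped as well. In HCT116 WT cells ENO1 (1155 FPKM) and PKM (938 FPKM) came next, then LDHB (747 FPKM) and TPI1 (737 FPKM), whose libraries overlapped.

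The widest gap was that of CA9, at 99.1 ± 3.09 FPKM in U-87 MG KO libraries and 93.8 ± 6.06 FPKM in U-87 MG WT libraries, and 0.2 ± 0.0356 FPKM in HCT116 KO libraries and 0.0504 ± 0.023 FPKM in HCT116 WT libraries (SD, n = 3 each). CA12 averaged 69.3 FPKM in U-87 MG WT and 2.13 FPKM in HCT116 WT. In the same order of lines, SLC2A3 had 9.97 and 1.18 FPKM, PFKFB4 37.1 and 4.58 FPKM, P4HA2 104 and 14.9 FPKM, and PDK1 12.2 and 1.92 FPKM. Among the genes lower in U-87 MG WT than in HCT116 WT, the largest ratios were those of MXI1 (2.65 and 11.9 FPKM), EGLN3 (0.283 and 1.22 FPKM), SLC16A3 (47.6 and 144 FPKM) and DDIT4 (19.3 and 35.3 FPKM).

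**Figure D5:**
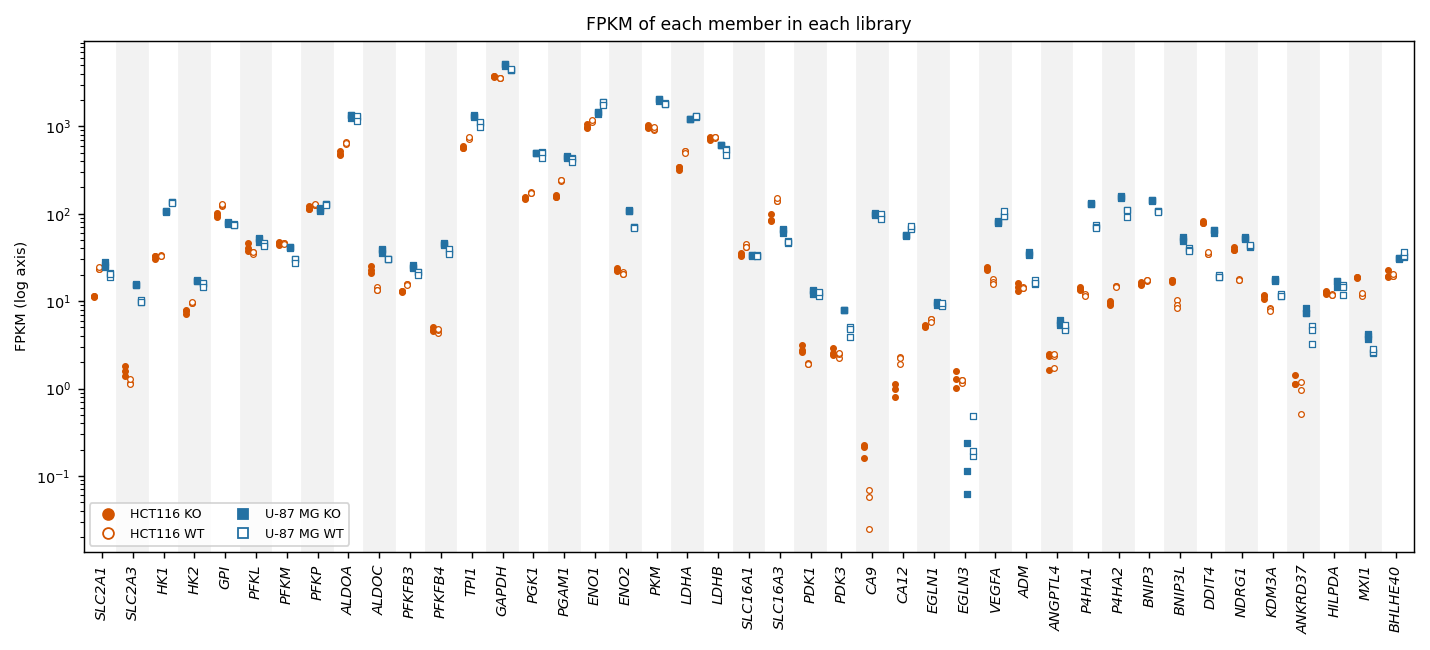
FPKM (y axis, log scale) of each of the 43 genes in every library, with HCT116 as orange circles, U-87 MG as blue squares, KO filled and WT open. CA9 averages 93.8 FPKM in U-87 MG WT and 0.0504 FPKM in HCT116 WT, and GAPDH is highest in every group.

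The HIF subunits and their sensing machinery, 20 genes outside the 43, give the setting. In HCT116, 19 were tested, 1 was called higher and 1 lower, against 7.82% and 4.07% of all genes tested there. HIF1A, the alpha subunit of HIF-1, was at 0.11 ± 0.043 (SE, adjusted p = 0.0395), and ARNT, its partner, at -0.017 ± 0.055 (SE, adjusted p = 0.815), neither called. EPAS1, the alpha subunit of HIF-2, had 27.4, 29.4 and 29.1 CPM in HCT116 KO libraries, against 49.7, 48.6 and 48.7 CPM in HCT116 WT libraries, and fell (log2 fold change -0.77 ± 0.061 (SE, adjusted p = 1.99e-09)). CITED2, which competes with HIF for its coactivators and is a HIF target itself, rose by 0.68 ± 0.066 (SE, adjusted p = 4.3e-08). VHL, which binds hydroxylated HIF, was at 0.14 ± 0.05 (SE, adjusted p = 0.0207), not called.

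In U-87 MG, 19 were tested, 1 was called higher and 4 lower, against 8.06% and 8.15% of all genes tested there. HIF1A had 596, 587 and 580.3 CPM in U-87 MG KO libraries, against 1157, 1098 and 1249.7 CPM in U-87 MG WT libraries. The KO libraries lay close together and far below every WT library, and HIF1A fell (log2 fold change -0.99 ± 0.042 (SE, adjusted p = 1.55e-14)). ARNT2, a partner subunit of nervous tissue, fell (log2 fold change -0.96 ± 0.094 (SE, adjusted p = 1.15e-08)), as did EP300, a HIF coactivator (-0.89 ± 0.048 (SE, adjusted p = 5.24e-13)), and RBX1, a part of the VHL ligase (-0.98 ± 0.13 (SE, adjusted p = 0.0008)). CITED2 rose by 0.62 ± 0.14 (SE, adjusted p = 0.0042). EPAS1 was at -0.34 ± 0.045 (SE, adjusted p = 9.96e-07), ARNT at -0.25 ± 0.064 (SE, adjusted p = 0.00185) and VHL at 0.30 ± 0.058 (SE, adjusted p = 0.000112), none called.

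Of the 4 that fell, 3 lie where most genes were lower in U-87 MG KO cells. The median log2 fold change of all genes tested on chromosome 22, which holds EP300 and RBX1, was -0.97, and 72.2% of them were called lower. It was -0.47 on chromosome 14, which holds HIF1A, with 35.6% called lower. Within 5 Mb, the neighbours' median was -0.98 for EP300, -0.99 for RBX1, -0.50 for HIF1A and 0.067 for ARNT2 on chromosome 15. HIF1A was thus lower than its neighbours and ARNT2 moved apart from its own, while EP300 and RBX1 did not stand out. The part of the chromosome-wide shift in these values was not tested. EGLN3 is the only one of the 43 genes on these 2 chromosomes. Neighbour medians in U-87 MG were also negative around other genes of the 43, at -0.32 for SLC16A1, -0.21 for EGLN1 and -0.19 for PFKFB3. The genes' own values were -0.012, 0.037 and 0.23. Other medians were positive, such as 0.16 for KDM3A and 0.14 for PDK3. The part of these shifts was not tested either.

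Another pair of lists gives the rest of the pathways. Of 40 other genes of glucose, pyruvate and lactate metabolism, 29 were tested in HCT116, with 2 called higher and 1 lower. In U-87 MG 29 were tested, with 5 higher and 3 lower. Over all genes tested, 7.82% were called higher and 4.07% lower in HCT116, and 8.06% and 8.15% in U-87 MG. PCK2, the mitochondrial enzyme that makes phosphoenolpyruvate, rose in HCT116 by 0.90 ± 0.069 (SE, adjusted p = 1.24e-09) and was at -0.60 ± 0.098 (SE, adjusted p = 1.57e-05) in U-87 MG, called lower. It lies on chromosome 14, and the median of its neighbours within 5 Mb was -0.38 in U-87 MG. In U-87 MG the pyruvate carrier subunit MPC2 (0.71 ± 0.05 (SE, adjusted p = 4.32e-11)), the kinase PDK2 (0.86 ± 0.069 (SE, adjusted p = 3.91e-10)), the fructose bisphosphatase TIGAR (0.72 ± 0.065 (SE, adjusted p = 2.89e-09)) and the transporter SLC2A8 (0.65 ± 0.093 (SE, adjusted p = 4.1e-06)) rose, and the transporter SLC16A7 fell (-0.66 ± 0.075 (SE, adjusted p = 1.84e-07)). TIGAR lies on chromosome 12, and the median of its neighbours within 5 Mb was 0.25 in U-87 MG.

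Of 55 other genes known to be induced by hypoxia, 47 were tested in HCT116, with 7 called higher and 1 lower. In U-87 MG 50 were tested, with 10 higher and 6 lower. For all genes tested the shares were 7.82% higher and 4.07% lower in HCT116, and 8.06% and 8.15% in U-87 MG. PNRC1, a nuclear receptor coactivator, rose in both lines, by 1.54 ± 0.075 (SE, adjusted p = 1.62e-12) in HCT116 and 1.46 ± 0.086 (SE, adjusted p = 1.84e-12) in U-87 MG. KLHL24 also rose in both, by 1.37 ± 0.082 (SE, adjusted p = 3.62e-11) in HCT116 and 1.66 ± 0.11 (SE, adjusted p = 2.88e-11) in U-87 MG, as did the cyclin CCNG2, a known FOXO target, by 1.24 ± 0.08 (SE, adjusted p = 9.57e-11) in HCT116 and 1.19 ± 0.085 (SE, adjusted p = 5.61e-11) in U-87 MG. The demethylase KDM5B rose by 0.71 ± 0.058 (SE, adjusted p = 3.4e-09) in HCT116 and was at 0.34 ± 0.058 (SE, adjusted p = 2.9e-05) in U-87 MG, not called there. The difference between the lines was not called for any of these 4 genes. STC2, the glycoprotein stanniocalcin 2, had 129, 130.4 and 124 CPM in HCT116 KO libraries, against 64.7, 65.9 and 64.7 CPM in HCT116 WT libraries. It rose by 0.97 ± 0.047 (SE, adjusted p = 1.27e-12) in HCT116 and fell in U-87 MG (log2 fold change -1.16 ± 0.056 (SE, adjusted p = 6.28e-14)), and the difference between the lines was 2.14 ± 0.073 (SE, adjusted p = 4.36e-21). Others that fell in U-87 MG were the collagen crosslinker LOX (-0.72 ± 0.044 (SE, adjusted p = 3.55e-12)), the disulfide oxidase ERO1A (-0.71 ± 0.046 (SE, adjusted p = 1.22e-11)) and the glycogen phosphorylase PYGL (-1.02 ± 0.051 (SE, adjusted p = 1.42e-13)). ERO1A and PYGL lie on chromosome 14, where the neighbours' median within 5 Mb was -0.63 and -0.71.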

How the data were processed

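Gene expression was measured by RNA sequencing of 12 libraries. The 43 members and all lists used here were chosen with earlier results of these data known. The submitters' processing notes name STAR 2.5.2 on GRCh38, featureCounts 1.6.1 for the counts and Cufflinks 2.2.1 for FPKM. The authors deposited 1 table of read counts and 1 of FPKM per library. Strand setting and treatment of multiple matches are not given. CPM is the deposited count scaled by TMM factors within each line.

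Counts were tested with edgeR 4.0.16 in R 4.3.3 (glmQLFit, robust; filterByExpr; TMM; Benjamini-Hochberg), in each line alone and as an interaction over 4 groups. Calls used the design text's cut-offs (fold 1.5, adjusted p 0.05, mean FPKM 0.5). Per-library values are given for every member called in a line or in the difference between lines and for SLC2A1, HK2, GAPDH, LDHA, PDK1, CA9, VEGFA and EGLN3. Genes outside the 43 are named where called, with a mean FPKM of at least 2, up to 5 per list and line, beside HIF1A, EPAS1, ARNT and VHL. Alternatives were DESeq2 1.42.0, limma 3.58.1 on log2 of FPKM plus 1 or 0.1, other scaling, no filter, a fold above 2, a replicate block and leaving out each library. Positions came from GENCODE release 44 and promoters from RefSeq. Same-numbered KO and WT libraries of HCT116 deviated together (r 0.252, 0.211 and 0.528 across genes). Replicates 1 and 2 were hardly told apart (KO 1 with WT 2 0.252, KO 2 with WT 1 0.191). These values set replicate 3 apart but do not identify pairs. The labels state no pairing, and the main tests used no replicate block. In U-87 MG same-numbered libraries did not deviate together (0.0713, 0.0232 and 0.00161). The scripts were tested on simulated data.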

Additional observations from a re-analysis of the deposited data

Results flagged for a closer look

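The log2 fold change of KO over WT differed between HCT116 and U-87 MG for 11 of the 43 genes by the interaction test of edgeR, against 16.9% of all 15613 genes tested. Of the 42 genes tested in both lines it differed for 3 upward and 7 downward, against 19.6% of the 12239 genes tested in both. Taken as HCT116 less U-87 MG, it came to -1.38 for SLC2A1 (-1.01 in HCT116, 0.38 in U-87 MG) and -1.05 for SLC16A3 (-0.64 and 0.42). It was -0.77 for PGAM1 (-0.61 and 0.16) and -1.10 for P4HA2 (-0.54 and 0.57). These 4 genes had opposite signs in the lines. PDK3 (-0.82) and ADM (-0.94) were called in U-87 MG alone, and CA12 (-0.75) was negative in both lines. The difference was positive for NDRG1 (0.94), VEGFA (0.88) and PDK1 (0.60), and for CA9 (1.61), which was not tested in HCT116 and entered through its U-87 MG level. Dixon's criterion for a single outlying value was not applied, since it is not used here for groups of 3.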

How the results depend on the processing

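The counts of called members were within 1.5 times the main count under DESeq2, DESeq2 size factors, unscaled library sizes and no low-count filter. Single calls lost there were the PDK1 difference (0.57 unscaled, 0.58 unfiltered) and ENO2 in U-87 MG (0.58 unfiltered); calls gained were VEGFA in HCT116 (0.585), P4HA2 (0.61) and KDM3A in U-87 MG and the differences of P4HA1 (-0.59) and TPI1 unscaled, and the EGLN3 difference (1.08) unfiltered. Under the replicate block they were 6 higher and 4 lower in HCT116, 8 and 0 in U-87 MG, and 4 and 7 for the difference; the block changed no named member's call. With limma on log2(FPKM + 1), 567 genes in all were called higher in HCT116 and 2 members higher in the difference. At a fold above 2, HCT116 had 2 members higher and 2 lower (404 and 152 of all genes), U-87 MG 2 higher (448 and 434 of all genes higher and lower), and the difference 1 higher and 3 lower (785 and 559 of all genes); fewer genes reach a larger fold. Leaving out 1 library gave 5 to 7 members higher and 4 to 5 lower in HCT116, 6 to 10 higher and 0 to 0 lower in U-87 MG, and 3 to 5 higher and 7 to 8 lower for the difference. Over all genes these ranges were 1071 to 1163 and 566 to 620 in HCT116, 1058 to 1165 and 1117 to 1151 in U-87 MG, and 1410 to 1526 and 1097 to 1224 for the difference. Signs turned for EGLN3 in HCT116 without KO replicate 3 (range over left-out libraries -0.040 to 0.29) and for CA9 in U-87 MG without WT replicate 3 (-0.010 to 0.085), neither called. On log2(FPKM + 1) the calls of PDK1 in HCT116 (0.39), SLC2A3 (0.57) and MXI1 (0.45) in U-87 MG, and the differences of PDK1 (0.32), PDK3 (-0.58), CA9 (0.11) and CA12 (-0.39) were lost, while LDHA (-0.61) and P4HA2 (-0.59) passed in HCT116 and P4HA1 (-0.64) in the difference; with log2(FPKM + 0.1) the PDK1 call in HCT116 (0.53), the MXI1 call in U-87 MG (0.575) and the PDK1 difference (0.46) were lost; the cause was not tested. Depth limits CA9 in HCT116 and EGLN3 in U-87 MG, with a few reads per library.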
